A study of Mus musculus with 9 samples.

Results

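A set of 10 genes whose usual place of expression is the germ line was followed through mouse brown adipose tissue (BAT) and cultured brown adipocytes that had lost Setdb1 or carried less of it. They are Tex19.1, Sycp3, Sycp2, Tcfl5, Stag3, Smc1b, Tex15, Dazl, Mael and Tdrd1, 10 of the 29386 genes in the deposited tables. They were named by symbol, and the choice was made with their values in Setdb1 AKO BAT in view, so those values are given below as a description without a test. Each experiment's table held 9 of the 10. Smc1b was missing from the BAT table, Mael from the 4-OHT table and Tdrd1 from the siRNA tables, and a missing gene is treated as not detected there.

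Setdb1 encodes a methyltransferase that places the silencing mark H3K9me3, trimethylation of lysine 9 of histone H3. In meiosis, homologous chromosomes are organised along cohesin-based axes and held together by the synaptonemal complex, while germ cells use the piRNA pathway to restrain transposons. In somatic cells most genes of this programme are kept silent by DNA methylation and by repressor complexes, among them complexes that contain E2F6, MGA and MAX.

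RNA was sequenced in 3 separate experiments with 9 libraries in all. Setdb1 AKO BAT (2 libraries, Setdb1 fl/fl with Adipoq-Cre) was set against control BAT (2 libraries, Setdb1 fl/fl without Cre). Cells treated with 1 μM 4-hydroxytamoxifen (4-OHT, 1 library) were set against cells given the ethanol vehicle (ETOH, 1 library), and both were primary brown adipocytes of genotype Setdb1 flox/flox with Rosa26Cre-ERT2, a Cre that tamoxifen switches on. Primary brown adipocytes transfected with siRNA against Setdb1 (siSetdb1, 2 libraries) were set against cells given siNC (1 library). No genotype is given for these cells. The titles siSetdb1_1 and siSetdb1_2 do not say whether the siSetdb1 libraries are replicates or come from different siRNAs. All BAT mice carry the floxed allele, and neither a Cre carrier with intact Setdb1 nor 4-OHT-treated cells without Cre are among the groups used here. Adipoq-Cre acts in adipocytes, while BAT also holds vessels, stroma and immune cells, whose Setdb1 this Cre is not aimed at. The labels do not explain the prefix TN_CE of the BAT libraries and give no age or sex.

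Setdb1 itself had 156 and 191 normalised counts in Setdb1 AKO BAT, against 455 and 473 in control BAT. It had 632 normalised counts in 4-OHT cells and 1050 in ETOH cells, and 371 and 399 in siSetdb1 cells, against 784 in siNC cells. The libraries labelled as lacking Setdb1 were thus the lower ones in every experiment, with much of the transcript still present. Reads on genes numbered 16057065 to 16576169 in Setdb1 AKO BAT and 15979479 to 16940622 in control BAT. They numbered 30176359 in 4-OHT cells, 29911734 in ETOH cells, 17593797 to 17721076 in siSetdb1 cells and 18468154 in siNC cells. Adipocyte markers (Adipoq, Plin1, Fabp4 and 4 others) summed to 17929 and 13718 CPM, counts scaled to a common number of reads on genes, in Setdb1 AKO BAT and to 15044 and 14080 CPM in control BAT. Brown adipocyte markers summed to 10834 and 7353 CPM in Setdb1 AKO BAT and to 11572 and 9972 CPM in control BAT. In culture the sums were 1298 CPM in 4-OHT cells and 670 CPM in ETOH cells. Of these 7 markers 1 was called higher in BAT, Elovl3, as were 1.00% of all genes tested. Elovl3 had 5300 and 6004 normalised counts in Setdb1 AKO BAT, against 259 and 327 in control BAT. It also had 16942 normalised counts in 4-OHT cells, against 2820 in ETOH cells, so the sums do not describe each marker. The 4-OHT experiment also carried macrophage markers, at 1882 CPM in 4-OHT cells and 3411 CPM in ETOH cells. Fibroblast and preadipocyte markers summed there to 8435 CPM in 4-OHT cells and 9054 CPM in ETOH cells.

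Sequence just before the start is shown for Tex19.1, Sycp3, Sycp2 and Tcfl5, the 4 that were called higher in Setdb1 AKO BAT, so that their letters can be compared. The stretches are 120 bases of RefSeq sequence (GRCm38.p6) that end just before the gene start, taken as the more upstream of the starts in RefSeq and in the deposited tables. They are written 5′ to 3′ on the strand of the gene, with matches to the motifs named below in capitals.
Tex19.1, chr11:121146023-121146142, forward strand: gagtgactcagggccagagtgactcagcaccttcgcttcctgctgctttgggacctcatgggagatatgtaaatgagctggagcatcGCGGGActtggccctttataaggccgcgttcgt
Sycp3, chr10:88459449-88459568, forward strand: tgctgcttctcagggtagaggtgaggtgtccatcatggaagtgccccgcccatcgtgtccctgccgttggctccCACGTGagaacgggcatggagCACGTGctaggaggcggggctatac
Sycp2, chr2:178407686-178407805, reverse strand: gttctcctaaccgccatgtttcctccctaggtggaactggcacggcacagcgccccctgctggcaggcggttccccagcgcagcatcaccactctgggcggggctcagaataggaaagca
Tcfl5, chr2:180642709-180642828, reverse strand: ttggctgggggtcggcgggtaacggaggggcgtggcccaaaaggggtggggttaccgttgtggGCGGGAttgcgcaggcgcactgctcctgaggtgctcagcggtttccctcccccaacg
Over the 250 bases before the RefSeq start, the 9 genes with a RefSeq promoter held a median of 18 CpG dinucleotides, from 7 in Sycp2 to 26 in Stag3. All 9 lay above the median of 6 over the 32851 promoters of the table. The letters TCCCGC, which occur in E2F-type motifs, were searched on both strands (GCGGGA on the other) and were found in 5 of the 9, namely Tex19.1, Sycp3, Tcfl5, Smc1b and Mael, against 16.9% of all promoters. In Sycp3 that match lies before the printed stretch. The palindrome CACGTG, the E-box letters that MGA and MAX bind, occurred in 4 of the 9 (Sycp3, Stag3, Mael and Tdrd1), against 6.02% of all promoters, and the Sycp3 stretch holds it at 2 places. The ETS-type letters TTCCGG, on either strand, were in none of the 9, against 12.0% of all promoters. The motifs do not overlap one another in the printed stretches, and a match describes letters only. Each motif holds a CpG, and the shares over all promoters were not matched for CpG content. The RefSeq start of Stag3 lies inside the gene as the deposited coordinates place it, and so do its 250 bases. Tex15 had no entry. For Tdrd1, which has several entries, CpG was counted in the first and the motifs were looked for in all.

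In BAT, Tex19.1 and Sycp3 reached the levels of well expressed genes in the knockout, Tcfl5 and Sycp2 were clearly present, and the other 6 genes stayed at or below about 14 reads a library. Of the 10 genes, 5 had enough reads to be tested (at least 10 normalised counts in 2 libraries), and 4 of these were called higher in Setdb1 AKO BAT by limma at a false discovery rate below 0.05, beside 1.00% of the 14466 genes tested (1.68% in either direction and 0.677% lower). The same 4 were called by edgeR (1.73% of all genes in either direction) and 3 of them by DESeq2 (4.50%). These genes were chosen on this contrast, so nothing is read from that count. In all 5 tested genes the libraries of both groups lay apart, with Setdb1 AKO BAT higher, as did 25.1% of all genes tested. All but Sycp3 would have missed the filter on the control libraries alone. The filter itself thus favoured a higher value in the knockout, and nothing is read from this count either. The median log2 fold change over all genes tested was 0.01.

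**Figure D1:**
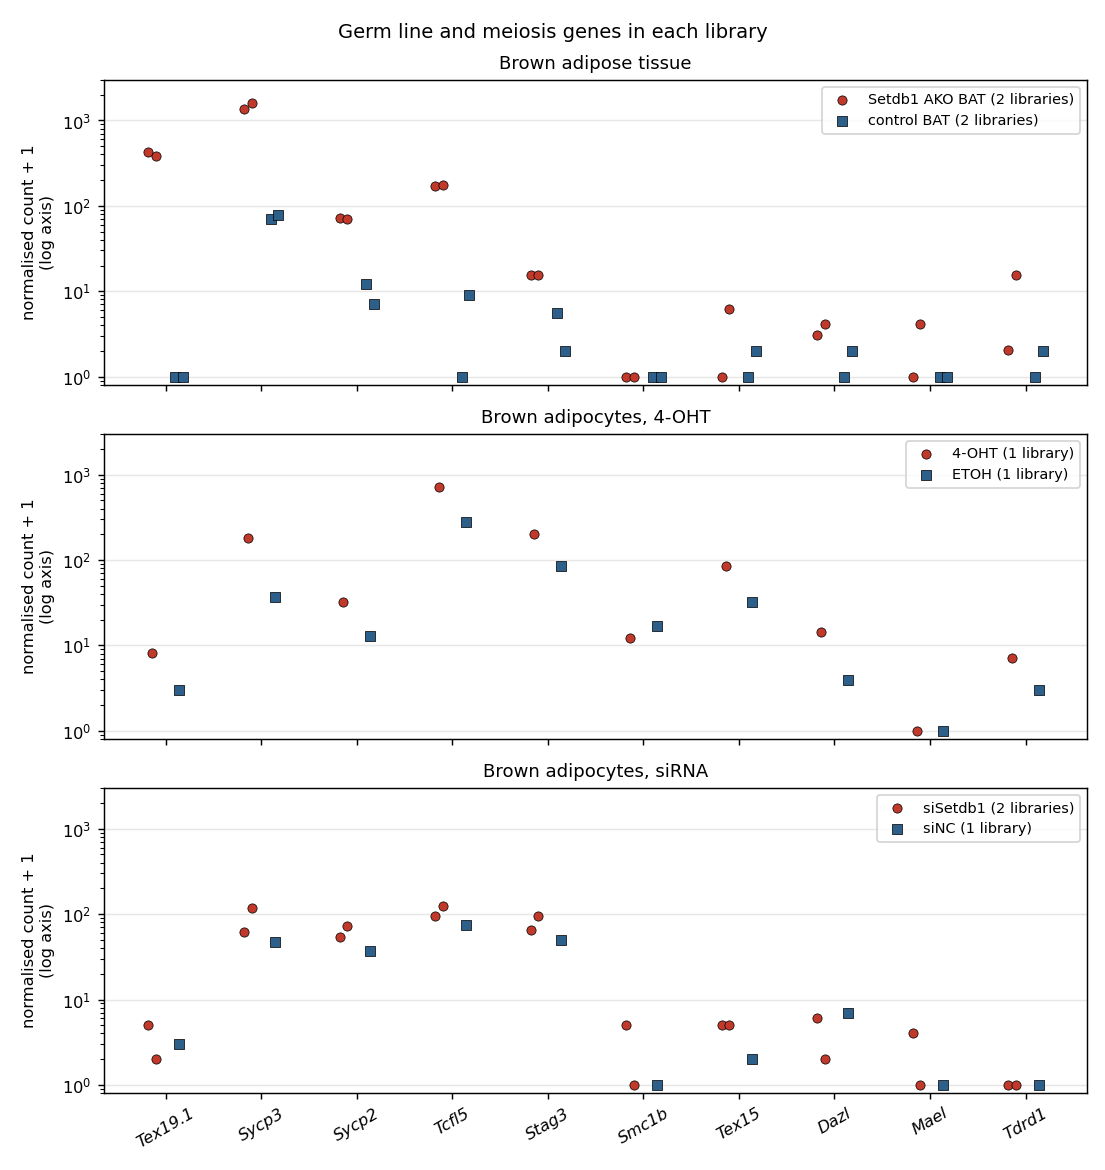
Normalised count plus 1 of each gene in each library (log axis, with a count of 0 or a gene missing from the table drawn at the bottom), in panels for BAT, 4-OHT and siRNA, with the Setdb1-depleted libraries left of their controls. Points are single libraries. In BAT, the Tex19.1 counts are 425 and 380 in Setdb1 AKO libraries and 0 in both control libraries, while the low genes are scattered near the bottom in all experiments.

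Sycp3 and Sycp2 encode proteins of the lateral elements of the synaptonemal complex. Sycp3 (ENSMUSG00000020059, chr10:88459569-88473236 of GRCm38, forward strand) had 1365 and 1597 normalised counts in Setdb1 AKO BAT, against 68.8 and 76.1 in control BAT. Both knockout libraries stood far above both controls, and the control level was not 0. The means were 1481 ± 164 in Setdb1 AKO BAT and 72.4 ± 5.2 in control BAT (SD, n = 2 each), a log2 fold change of 4.33 (SE 0.18) on log2(normalised count + 1), the scale of all BAT and siRNA fold changes here. Sycp2 (ENSMUSG00000060445, chr2:178345293-178407685, reverse strand) had 71.0 and 69.1 normalised counts in Setdb1 AKO BAT, against 11.0 and 6.1 in control BAT. The groups lay apart, the knockout pair close together and the control pair on 12 and 6 reads. The log2 fold change was 2.95 (SE 0.44). The call for Sycp2 was lost with no filter on low values and when any single BAT library was left out, with log2 fold changes of 2.57 to 3.33.

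Sycp3 shares 660 exonic bases with Chpt1, a gene of phosphatidylcholine synthesis on the opposite strand, and 46.5% of its 31-base words also occur there. Chpt1 had 22158 and 19501 normalised counts in Setdb1 AKO BAT, against 14443 and 13566 in control BAT, a log2 fold change of 0.57 that was not called (limma adjusted p = 0.181). The strand setting of the read counting is not given in the sources used here, so reads in the shared stretch cannot be assigned with certainty, and the part of Chpt1 in the Sycp3 counts was not tested.

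Tex19.1, a mammal-specific gene of germ cells, placenta and pluripotent cells with a role in meiosis and transposon control, was the one gene of the 10 with many reads in the knockout and 0 in both controls. Tex19.1 (ENSMUSG00000039329, chr11:121146143-121148319, forward strand) had 413 and 368 reads in Setdb1 AKO BAT, against 0 and 0 in control BAT. The knockout libraries thus carried 425 and 380 normalised counts, and a count of 0 allows up to 3 reads. Set against a floor of 3 reads over both control libraries, the level was at least 263-fold higher in Setdb1 AKO BAT. Its near copy Tex19.2 was in no table, and 6.31% of the 31-base words of Tex19.1 are shared with it.

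Tcfl5 encodes a basic helix-loop-helix transcription factor required in spermatogenesis. Tcfl5 (ENSMUSG00000038932, chr2:180621956-180642708, reverse strand) had 171 and 173 normalised counts in Setdb1 AKO BAT, against 0 and 8.1 in control BAT. The knockout libraries were almost equal, while all 8 control reads came from 1 library. The log2 fold change of 5.84 (SE 0.93) was therefore set by the controls, at 4.25 without control BAT 1 and 7.44 without control BAT 2. The call was lost without control BAT 1, without either Setdb1 AKO library, with DESeq2 and with no filter on low values. Tcfl5 shares 234 exonic bases with Col9a3 on the opposite strand, a collagen gene that averaged 37.5 normalised counts in BAT and had a log2 fold change of 0.20.

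Stag3 and Smc1b encode the meiotic forms of cohesin subunits. Stag3 (ENSMUSG00000036928, chr5:138280240-138312393, forward strand) had 14.4 normalised counts in each Setdb1 AKO BAT library, against 4.6 and 1.0 in control BAT. The groups lay apart on few reads, 14 and 14 in the knockout and 5 and 1 in the controls. The log2 fold change was 2.20 (SE 0.75), and the gene was not called. Smc1b (ENSMUSG00000022432, chr15:85064689-85131964, reverse strand) was not in the BAT table. Of the mitotic counterparts, Smc1a had 994 and 1111 normalised counts in Setdb1 AKO BAT, against 837 and 792 in control BAT. Its log2 fold change of 0.37 was not called (limma adjusted p = 0.264).

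The 4 genes that remain had too few reads in BAT for a test. Tdrd1, a tudor protein of the piRNA pathway (chr19:56826209-56870012), had 1 and 14 reads in Setdb1 AKO BAT, against 0 and 1 in control BAT. All but 1 of the knockout reads came from Setdb1 AKO BAT 2, so the knockout libraries disagreed and the groups touched. The ratio of scaled reads was 15.1, with an exact binomial 95% interval of 2.33 to 637 that covers counting error only. Dazl, an RNA-binding protein that licenses germ cells for meiosis (chr17:50279395-50293636), had 2 and 3 reads in Setdb1 AKO BAT, against 0 and 1 in control BAT. Tex15, which directs silencing of transposons in male germ cells (chr8:33516738-33585582), had 0 and 5 reads in Setdb1 AKO BAT, against 0 and 1 in control BAT. For both the ratio was 5.04 with an interval of 0.564 to 239, so no difference was detectable at this depth. Mael, a piRNA pathway protein of the nuage (chr1:166201201-166238747), had 0 and 3 reads in Setdb1 AKO BAT, against 0 and 0 in control BAT, and no fold is given. Tex15 and Mael reads in the knockout were thus all in Setdb1 AKO BAT 2, where most Tdrd1 reads were too.

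Per gene length, the order in Setdb1 AKO BAT was Sycp3, Tex19.1, Tcfl5, Sycp2 and Stag3, and no neighbours in it overlapped. Sycp3 reached 63.3 and 76.3 RPKM (reads per kilobase, scaled to library depth), above 96.5% and 97.3% of the genes in the table, against 3.50 and 3.71 RPKM in control BAT. Tex19.1 stood at 13.3 and 12.2 RPKM in Setdb1 AKO BAT, above 86.9% and 85.7% of genes, against 0 RPKM in control BAT. Tcfl5 had 3.16 and 3.30 RPKM in Setdb1 AKO BAT, against 0 and 0.158 RPKM in control BAT. Sycp2 had 0.698 and 0.699 RPKM in the knockout libraries and Stag3 0.147 and 0.152 RPKM. Below Stag3, the spread of Tdrd1 (0.0111 and 0.160 RPKM) crossed that of Stag3, and Mael, Dazl and Tex15 overlapped one another. At least 1 read was found for 7 and 9 of the 10 genes in Setdb1 AKO BAT, against 3 and 7 in control BAT. In bulk tissue, more cells with a transcript and more transcript per cell cannot be told apart.

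In the 4-OHT experiment the levels had another order, since Tcfl5 and Stag3 were expressed already in ETOH cells. Each group is 1 library, so there is no replicate check. Of the 10 genes, 4 reached 50 counts in a library, and these were higher in 4-OHT cells by more than 2-fold, as were 1.28% of the 13969 genes that reached it (2.94% in either direction and 1.65% lower). Sycp3 and Tex15 reached 50 counts in 4-OHT cells alone, so the minimum itself favoured a higher ratio there, and nothing is read from that count. The median log2 ratio of those genes was 0.01. Sycp3 had 178 reads in 4-OHT cells and 37 in ETOH cells, a ratio of scaled reads of 4.99 (95% interval 3.49 to 7.32). Tcfl5 had 707 reads in 4-OHT cells and 282 in ETOH cells, a ratio of 2.60 (2.26 to 3.00). Stag3 had 198 reads in 4-OHT cells and 86 in ETOH cells, a ratio of 2.39 (1.85 to 3.11). In these 3 genes the ETOH library was well above 0, unlike Stag3 and Tcfl5 in control BAT. Tex15, at most 5 reads in a BAT library, had 83 reads in 4-OHT cells and 32 in ETOH cells, a ratio of 2.69 (1.77 to 4.18).

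The other 6 had fewer reads or none. Sycp2 had 31 reads in 4-OHT cells and 12 in ETOH cells, a ratio of 2.68 (1.34 to 5.73). Dazl had 13 reads in 4-OHT cells and 3 in ETOH cells, a ratio of 4.50 (1.24 to 24.6). Both intervals stay above 1, although they cover counting error only and not the spread between cultures. Tex19.1, far above its controls in knockout BAT, had 7 reads in 4-OHT cells and 2 in ETOH cells, and its interval of 0.691 to 35.8 includes 1. Tdrd1 had 6 reads in 4-OHT cells and 2 in ETOH cells. Smc1b had 11 reads in 4-OHT cells and 16 in ETOH cells, a ratio of 0.713 (0.299 to 1.64), the one of the 10 that was not higher with 4-OHT among those in the table. Setdb1 itself had a ratio of 0.601 (0.544 to 0.664). Per length, Tcfl5 led with 7.40 RPKM in 4-OHT cells and 2.98 RPKM in ETOH cells, ahead of Sycp3 with 4.67 RPKM in 4-OHT cells and 0.979 RPKM in ETOH cells. Stag3 followed at 1.14 RPKM in 4-OHT cells and 0.502 RPKM in ETOH cells.

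With siRNA, no gene of the 10 was called, although both siSetdb1 libraries lay above siNC in all 4 that could be tested. That pattern was shown by 34.1% of all 15224 genes tested, and 0.0394% of them were called by limma. Among the 4, none had an unadjusted p under 0.05, against 5.06% of all genes tested. None was called by edgeR, which called 0.243% of all genes, or by DESeq2, which called 0.0723%. Sycp3 had 60.8 and 116 normalised counts in siSetdb1 cells, against 46.4 in siNC cells, and the siSetdb1 libraries differed from each other more than the lower one differed from siNC. Its log2 fold change was 0.84 with an SE of 0.39 (adjusted p = 0.941 by limma), at 1.31 without siSetdb1 library 1 and 0.38 without library 2. Sycp2 had 52.7 and 72.3 normalised counts in siSetdb1 cells, against 35.5 in siNC cells, a log2 fold change of 0.78 (SE 0.38). Stag3 had 64.9 and 94.7 normalised counts in siSetdb1 cells, against 49.3 in siNC cells, a log2 fold change of 0.66 (SE 0.35). Tcfl5 had 93.2 and 124 normalised counts in siSetdb1 cells, against 74.0 in siNC cells, a log2 fold change of 0.53 (SE 0.29). In each of the 4 it was siSetdb1 library 2 that stood higher. The adjusted p was 0.941 for each of them, and over the alternatives it ran from 0.628 to 1 for Sycp3.

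The remaining genes were at or near 0 in these cells. Tex19.1 had 4 and 1 reads in siSetdb1 cells, against 2 in siNC cells, and Tex15 had 4 and 4 reads, against 1 in siNC cells. Dazl had 5 and 1 reads in siSetdb1 cells, against 6 in siNC cells, and Smc1b and Mael had 0 reads in siNC cells with 4 and 3 reads in siSetdb1 library 1 alone. Setdb1 missed the threshold here as well (limma adjusted p = 0.0526, at -1.02 on the log2 scale with an SE of 0.15), and edgeR and DESeq2 called it. The p-values of these comparisons measure only the spread between these libraries, which may be technical or lie between different siRNAs. The fit takes siNC, a single library, to spread as the siSetdb1 pair does.

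**Figure D2:**
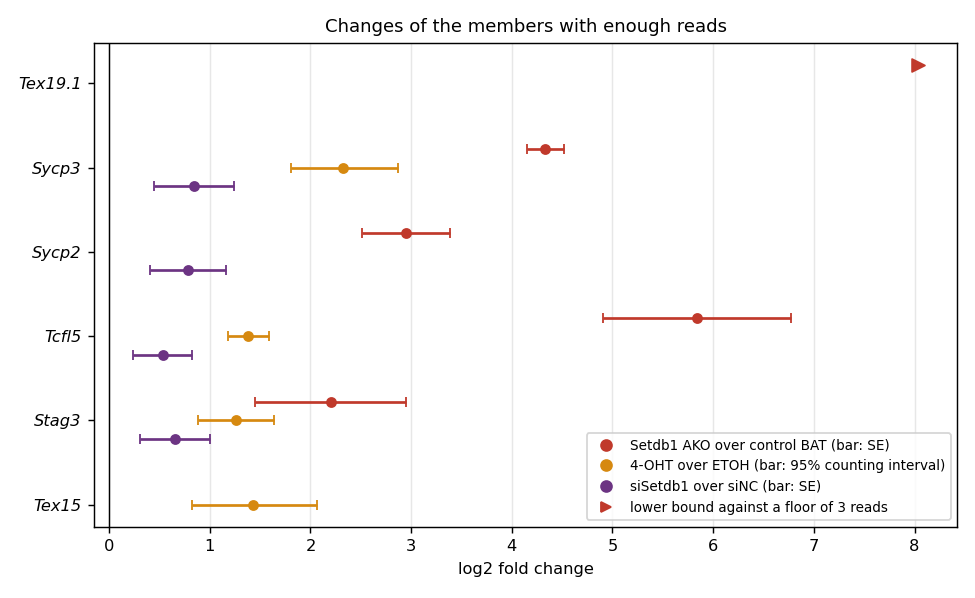
Change of each gene in BAT, 4-OHT and siRNA, as log2 of Setdb1-depleted over control libraries, for genes with enough reads in that experiment. Bars are standard errors in BAT and siRNA and 95% counting intervals in 4-OHT, and Tex19.1 in BAT is a lower bound. In 4-OHT the points are log2 of the ratio of scaled reads. Sycp3 stands at 4.33 in BAT, at a ratio of 4.99 in 4-OHT and at 0.84 in siRNA. Sycp2 is not drawn for 4-OHT, where it did not reach 50 counts.

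Few other germ line genes could be tested. Of 130 other genes in 6 lists (synaptonemal complex and axis, recombination, piRNA pathway, germ cell identity, spermatid, oocyte), 28 could be tested in BAT. None of them was called higher by limma, edgeR or DESeq2. Over all genes tested limma called 1.00% higher and 0.677% lower, and in either direction edgeR called 1.73% and DESeq2 4.50%. With 28 genes at such shares, the lack of a call says little about these genes. By limma 8 of the 28 had an unadjusted p under 0.05, beside 17.7% of all genes tested. The median log2 fold change of the 28 was 0.43, beside 0.01 over all genes tested, a value that the filter raised as described below. One was lower, Gapdhs, the sperm form of a glycolytic enzyme, with 8.2 and 8.3 normalised counts in Setdb1 AKO BAT, against 60.5 and 61.9 in control BAT (log2 fold change -2.75, limma adjusted p = 0.0255). In 4-OHT 21 of the 130 reached 50 counts, of which 1 was past 2-fold higher and 2 past 2-fold lower, beside 1.28% and 1.65% of all genes. Rnf17, a tudor protein of the piRNA pathway, was past 2-fold in 4-OHT with 114 reads in 4-OHT cells and 44 in ETOH cells. In BAT it had 21.6 and 23.7 normalised counts in Setdb1 AKO libraries, against 4.6 and 5.1 in control libraries, which was not called (limma adjusted p = 0.116). Msh5 and Pld6 were past 2-fold lower in 4-OHT, at 33 and 56 reads in 4-OHT cells, against 74 and 122 in ETOH cells. Rnf17 reached 50 counts in 4-OHT cells alone and Msh5 in ETOH cells alone, so the minimum favoured their directions. In BAT, Rnf17 and several others of the 28 passed the filter through the knockout libraries alone, and Gapdhs through the control libraries alone. The filter thus favoured their directions there too, and nothing is read from the list median or from the call of Gapdhs. In siRNA 34 of the 130 were tested and none was called by limma, edgeR or DESeq2, which called 0.0394%, 0.243% and 0.0723% of all genes. By limma 0 had an unadjusted p under 0.05, beside 5.06% of all genes tested.

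**Figure D3:**
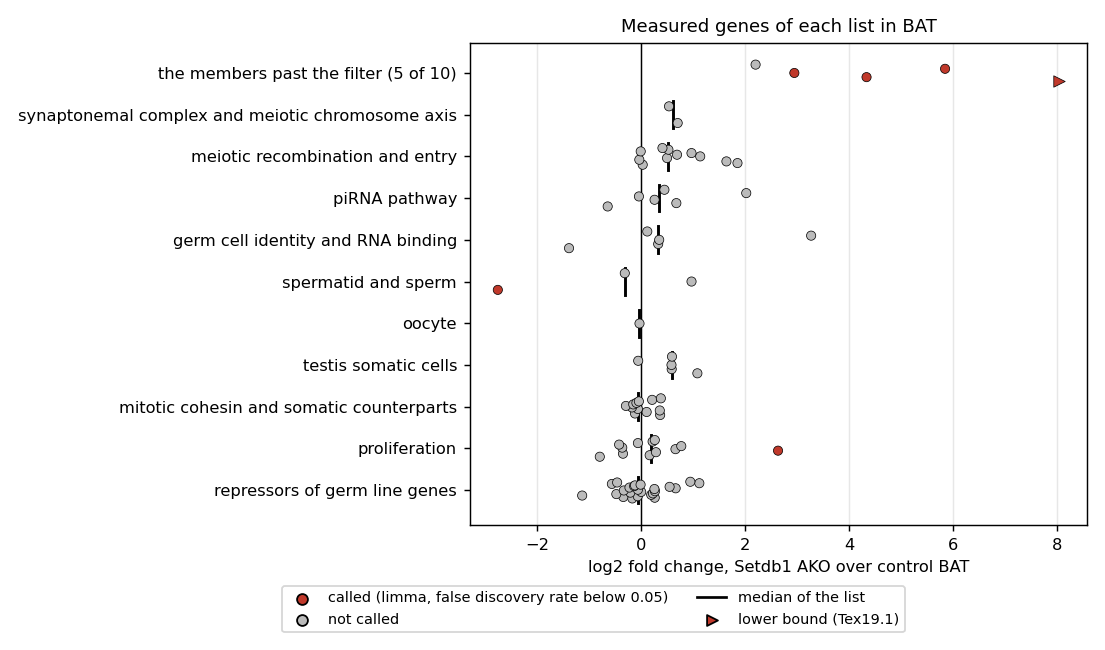
Log2 fold change of Setdb1 AKO over control BAT for every tested gene of each list, with red points called by limma and bars at list medians. Tex19.1 is drawn at its lower bound. Among the other germ line lists the only red point is Gapdhs, at -2.75, and Plk1 at 2.63 is the red point among proliferation genes.

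None of 7 defining germ cell markers (Ddx4, Dazl, Stra8, Sycp1, Prm1, Tnp1 and Zp3) had enough reads in BAT for a test. Sycp1, Prm1 and Tnp1 had 0 reads in all 4 BAT libraries, and Stra8 and Zp3 had 0 reads in both Setdb1 AKO libraries. Ddx4 had 5 and 7 reads in Setdb1 AKO BAT, against 5 and 4 in control BAT, and Dazl is given above. The 7 markers summed to 0.422 and 0.623 CPM in Setdb1 AKO BAT and to 0.531 and 0.375 CPM in control BAT, so the groups overlapped. In the 4-OHT experiment the sum was 0.961 CPM in 4-OHT cells and 0.669 CPM in ETOH cells, with 11 reads of Ddx4 in 4-OHT cells against 5 in ETOH cells and 4 reads of Stra8 against 0. The fibroblast marker sum was 410 and 556 CPM in Setdb1 AKO BAT and 433 and 378 CPM in control BAT, and that of macrophages 221 and 273 CPM in Setdb1 AKO BAT and 269 and 182 CPM in control BAT. Of the 8 fibroblast and preadipocyte markers 1 was called higher in BAT, Pi16, with 229 and 562 normalised counts in Setdb1 AKO BAT, against 63.3 and 36.5 in control BAT. Of the 7 macrophage markers 1 was called higher, Cd14, with 1005 and 981 normalised counts in Setdb1 AKO BAT, against 493 and 529 in control BAT. Over all genes tested in BAT 1.00% were called higher. In 4-OHT cells Cd14 had 967 normalised counts, against 2056 in ETOH cells, and the fibroblast marker Dcn 997, against 2257. Both were thus past 2-fold lower there, as were 1.65% of all genes that reached 50 counts. No other of the 7 macrophage markers or of the 5 fibroblast markers that reached it was past 2-fold. The part of these cells in the values above was not tested. The 12 measured genes of mitotic cohesin and other somatic counterparts had a median log2 fold change of -0.05 in BAT. None was called there by limma, edgeR or DESeq2, which called 1.68%, 1.73% and 4.50% of all genes in either direction. By limma 1 had an unadjusted p under 0.05, beside 17.7% of all genes tested. Of 12 proliferation genes 1 was called, Plk1, a mitotic kinase, with 87.5 and 66.0 normalised counts in Setdb1 AKO BAT, against 12.8 and 10.1 in control BAT (limma adjusted p = 0.0265). The share called higher over all genes tested was 1.00%. The log2 fold changes of the 12 had a median of 0.19. Apart from Plk1 some, such as Cenpa (0.77), were higher and some, such as Mki67 (-0.79), lower, and none of these was called.

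Among 24 known repressors of germ line genes, only Atf7ip, a partner of SETDB1 that stabilises it, was called in siRNA and past 2-fold in 4-OHT. Over all genes tested 0.0394% were called in siRNA by limma, and 1.28% were past 2-fold higher in 4-OHT. Atf7ip had 1777 and 1795 normalised counts in siSetdb1 cells, against 790 in siNC cells, and was called by limma (adjusted p = 0.00483) at a log2 fold change of 1.18 with an SE of 0.12. In 4-OHT cells it had 4253 reads, against 1562 in ETOH cells. In BAT it had 405 and 540 normalised counts in Setdb1 AKO libraries, against 202 and 228 in control libraries, just short of the threshold (limma adjusted p = 0.0503). In BAT none of the 24 was called by limma, 6 had an unadjusted p under 0.05 (17.7% of all genes), and edgeR called 1 (1.73% of all genes) and DESeq2 called 2 (4.50%).

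The neighbours of the 10 genes were looked at in BAT. Of 52 protein-coding genes within 100 kb, 34 were tested in BAT, and their log2 fold changes had a median of 0.17. None was called higher by limma, which called 1.00% of all genes higher and 0.677% lower. None was called higher by edgeR either (1.73% of all genes in either direction). DESeq2 called Narf and Ppp1r3d higher (4.50% of all genes in either direction). An unadjusted p under 0.05 by limma was found for 10 of the 34, against 17.7% of all genes tested. One was called lower, BC037034 at 16.2 kb from Stag3, with 104 and 127 normalised counts in Setdb1 AKO BAT, against 323 and 276 in control BAT (limma adjusted p = 0.0340). Ogfod3, the nearest tested gene to Tex19.1, had a log2 fold change of 0.29, and Ppp1r3d, at 3.5 kb from Sycp2, had 1.04. On either side of Tcfl5, Ogfr and Dido1 had log2 fold changes of -0.14 and -0.24. The highest value, 1.80, belonged to Ildr2 beside Mael, on 15.4 and 16.5 normalised counts in Setdb1 AKO BAT, against 3.7 and 4.1 in control BAT, and was not called. Ildr2 passed the filter through the knockout libraries alone.

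**Figure D4:**
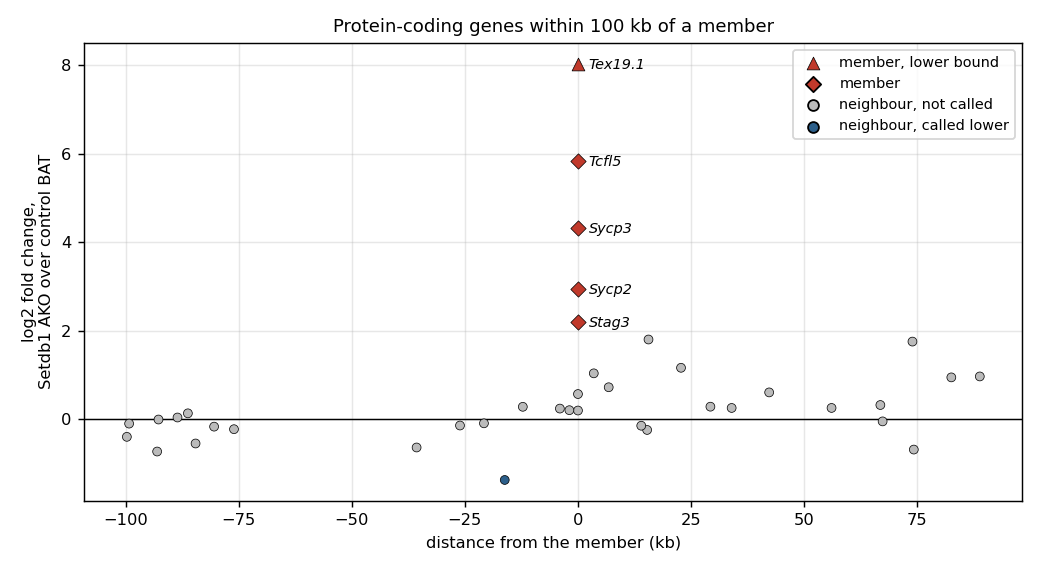
Log2 fold change of Setdb1 AKO over control BAT for tested protein-coding genes, by distance in kb from the germ line gene they neighbour, which is drawn at 0. Diamonds and the triangle (the lower bound for Tex19.1) mark the germ line genes and circles the neighbours, which lie between -1.37 and 1.80.

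Other protein-coding genes were compared with the mean profile of the 9 of the 10 that reached 10 reads in some library. Each of the 9 was first taken as log2(CPM + 1) and scaled to the same mean and spread. Genes with few reads thus counted as much as Sycp3 or Tex19.1. The genes that ran most like this mean were Vwa8, Zfp110, Rpl39l, Zfp445 and Gm17655. Their Pearson correlations over the 9 libraries were 0.927, 0.923, 0.923, 0.918 and 0.912 among 11966 genes compared, given as a description since libraries of an experiment share cell source and depth. Of the germ line genes themselves Tcfl5 followed that mean at 0.946 and the other 8 at 0.361 to 0.654. Rpl39l, a testis-enriched copy of a ribosomal protein, had a log2 fold change of 2.77 in BAT, a log2 ratio of 1.43 in 4-OHT and a log2 fold change of 1.02 in siRNA. Zfp445, a KRAB zinc finger gene, had log2 fold changes of 1.80 in BAT and 0.05 in siRNA.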

How the data were processed

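Read counts per gene were compared in BAT, 4-OHT and siRNA libraries. Tools listed, with no role or order, in the submitters' processing notes are featureCounts 2.0.3, STAR 2.7.10a, DESeq2 1.36.0 and Trimmomatic 0.39, and the build is GRCm38. Per the labels, libraries came from oligo(dT)-selected RNA with the NEBNext Ultra II kit. The deposited BAT and siRNA tables hold a signal per gene, the read count scaled by a near-constant factor per library. The deposited 4-OHT table holds raw counts, the scaled signal and FPKM, and the FPKM was not used. Deposited log2 fold changes and p-values of the authors were not used either. The authors' gene lengths served for RPKM.

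Whole reads were recovered from the signal, with at least 99.65% of values within 0.05 reads of whole. The siRNA tables were joined through siNC, whose reads were equal in all 19381 shared genes. Main tests used limma 3.58.1 (R 4.3.3, eBayes with trend) on log2(normalised count + 1), for genes with at least 10 normalised counts in 2 BAT libraries or 1 siRNA library, with a threshold of 0.05 on the Benjamini-Hochberg adjusted p over all tested genes. The 4-OHT ratios of scaled reads used TMM library sizes (edgeR 4.0.16) without a prior count, with exact binomial 95% intervals, also for genes on few reads. The log2 ratios and the 2-fold threshold in 4-OHT used TMM-scaled counts with a prior count of 2. Genes past 2-fold were counted among those with at least 50 counts in 1 library. DESeq2 1.42.0 and edgeR on recovered reads were alternatives.

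The 10 genes, the other lists and the cell type markers were chosen with earlier results of these data known. Named beyond them are called genes of each list (at most 4), the nearest tested and any called neighbours within 100 kb, and the 5 genes most like the mean profile. Narf, Ildr2, Elovl3, Pi16, Dcn, Cd14, and Atf7ip and Rnf17 outside the comparison that called them, were picked after their values were seen. Replicate numbers were not used to pair the BAT libraries in the main fit. Deviations of equal numbers correlated at -0.015, which cannot exclude a pairing. A fit with replicate number as a block is given below.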

Additional observations from a re-analysis of the deposited data

Results flagged for a closer look

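Dazl counts lay on different sides of the controls in different experiments, on too few reads to give a direction in BAT or siRNA. Dazl had 2 and 3 reads in Setdb1 AKO BAT, against 0 and 1 in control BAT, and 13 reads in 4-OHT cells, against 3 in ETOH cells. In the siRNA experiment it had 5 and 1 reads in siSetdb1 cells, against 6 in siNC cells (ratio of scaled reads 0.523, exact binomial 95% interval 0.14 to 1.96). The BAT interval, 0.564 to 239, also includes 1. The difference between experiments was not tested.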

How the results depend on the processing

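No direction reversed for any of the tested germ line genes or Setdb1. The BAT calls numbered 243 over all genes, 651 with DESeq2 and 11 with no filter on low values, and 12 to 39 when 1 library was left out (39 without Setdb1 AKO BAT 1, 23 without Setdb1 AKO BAT 2, 12 without control BAT 1 and 20 without control BAT 2). The BAT call of Setdb1 was lost without any 1 of the 4 libraries, at log2 fold changes of -1.28 to -1.56, and with no filter, at the same -1.42 as with all libraries and the filter, and those of Sycp3 and Tex19.1 were kept. The germ line genes called in BAT numbered 4, 2 with no filter and 2 to 3 when 1 library was left out. The replicate block gave 299 BAT calls and kept the number of germ line genes called at 4. The siRNA calls numbered 6, 37 with edgeR, 65 with TMM scaling, 11 with DESeq2, 0 with no filter and 29 with a filter of at least 50, and none was a germ line gene of the 10 under any of these. Leaving out a siSetdb1 library left no spread to test, so no calls were counted there. In 4-OHT, 410 genes were past 2-fold and 1382 with a minimum of 10 counts. The causes were not tested. The fitted fold change of Tex19.1 in BAT depends on the pseudocount, so only lower bounds are given for it. Values on fewer than 10 reads, in all 3 experiments, are limited by depth.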

Other observations

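Slc25a31, the germ cell form of the mitochondrial ADP and ATP carrier, was chosen after its values were seen. It had 38.1 and 14.4 normalised counts in Setdb1 AKO BAT, against 5.5 and 0 in control BAT, and was not called (limma adjusted p = 0.161). It passed the filter through the knockout libraries alone. Sycp1, the transverse filament protein of the synaptonemal complex, had 1 read in 4-OHT cells and 12 reads in ETOH cells, and 0 reads in all BAT and siRNA libraries.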
